A study of Rattus norvegicus with 12 samples.

Results

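The transcripts described here encode the nuclear subunits of respiratory complex I in rat heart muscle. Members were chosen by name, as every table row whose symbol starts with Nduf followed by a, b, c, s or v and a digit, with a number in all samples and a mean of at least 1 TPM over the 12 samples. TPM is a transcript's length-corrected share of a sample's RNA, with all transcripts of a sample adding up to about 1e6. The rule gave 39 rows out of 17602 in the table, and these carry 37 symbols. No matching row held a missing value and none had a mean under 1 TPM, and the member nearest to that bound was Ndufs6 with a mean of 2.21 TPM. All 39 members entered the test across genes.

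The samples were cardiac muscle from ZSF1 rats, a cross-bred strain used as a model of heart failure with preserved ejection fraction, and the study asked what nicotinamide does in these hearts. Bulk RNA was sequenced in 4 samples of lean controls, 4 samples of obese rats and 4 samples of obese rats given drinking water with 24 mM nicotinamide (NAM), a precursor of the coenzyme NAD+, from week 8 to week 20 of age. The labels give the strain ZSF1 to all 3 groups and call the obesity diet-induced, whereas obese ZSF1 rats are known to carry leptin receptor mutations. Genotype and the age of the lean and untreated obese rats are not given in the labels. The labels do not say that the samples of a group are separate animals, so p-values measure the spread between these samples, which may be technical. They name no batch, so a batch shared by all samples of a group cannot be told apart from the group.

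Complex I takes electrons from NADH, passes them along a chain of iron-sulfur clusters to ubiquinone, and pumps protons across the inner mitochondrial membrane. Its N module oxidises NADH, its Q module reduces ubiquinone, and its P module is the membrane arm that pumps protons. The core of the matrix arm is encoded in the nucleus and the core of the membrane arm in mitochondrial DNA, and nuclear accessory subunits surround both. The heart makes most of its ATP by respiration, which this complex feeds with electrons.

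By the module to which each subunit is usually assigned, 11 rows belonged to the N module, 6 to the Q module, 10 to the proximal and 10 to the distal membrane arm. Core subunits described by name are Ndufs1, Ndufs3, Ndufs7, Ndufs8, Ndufv1 and Ndufv2. Ndufa4, which is now counted as a subunit of complex IV, and its paralog Ndufa4l2 carry the name only. Ndufv3 and Ndufa10l1 each stood in the table as 2 rows, a higher and a lower one, and the reads may be split between near-identical copies there, so both pairs are uncertain. RefSeq lists pseudogenes for other members too, and reads shared with them can shift a level. Ndufs6 was listed at 0 in 3 samples and shares its symbol with a pseudogene in RefSeq, so its low values are uncertain too. Ndufab1, the acyl carrier subunit, does not match the name rule.

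Because TPM is a share, the level of a transcript depends on all others in the sample. Transcripts of mitochondrial DNA took 66.2 to 70.4% of the TPM of lean samples, 74.6 to 75.5% of obese samples and 69.9 to 73.8% in the NAM group. The median of all 10526 tested genes was 0.20 lower on the log2 scale in obese than in lean samples and 0.25 higher in NAM-treated than in obese samples. The member counts of every comparison are therefore given on 2 scales, as deposited and rescaled by 1 factor per sample (the median-of-ratios factor), which sets the difference of the median gene near 0. Many values of single members, and those of markers and gene spans, are given as deposited only. Lean replicate 1 stood apart with the lowest mitochondrial share (66.2%) of all 12 samples. Of 12 heart muscle cell markers 11 were in the table and none was at 0 in a group, with summed levels of 23214 to 27118 TPM in lean hearts, 16590 to 18827 in obese and 20427 to 23589 in NAM-treated samples. The summed level of 4 erythroid markers was 721 to 1593 TPM in lean, 1661 to 4018 in obese and 485 to 2300.2 in NAM-treated samples, so lean and obese samples did not overlap. That of 6 smooth muscle and pericyte markers was 159 to 175 TPM in lean, 120.0 to 146 in obese and 122 to 196 in NAM-treated samples, lower in every obese than in any lean sample. The sum of 5 atrial markers was 89.6 to 162 TPM in lean, 115 to 582 in obese and 164 to 1109 in NAM-treated samples, higher in every NAM-treated than in any lean sample, and 1 of the 5 was at 0 in the obese group. The sums of fibroblast, endothelial, macrophage and adipocyte markers overlapped between all groups. In bulk tissue, fewer muscle cells and less of a transcript in each cell cannot be told apart, and the part of these sums in the results was not tested.

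Promoter sequences are shown first because the promoters of respiratory genes are known for shared motifs. Many members moved in the same direction as each other as deposited, but so did most tested genes. Of 10526 genes, 8670 had a negative difference between obese and lean, and 8867 a positive one between NAM-treated and obese. RefSeq promoter windows of the GRCr8 build, from 250 bases before to 50 bases after the start, matched 33 of the 37 member symbols. The motif of NRF1, a known regulator of respiratory genes, was searched on both strands like the other motifs. It was in 7 of these 33 windows (21.2%) and in 4.25% of all 33469 RefSeq windows. The 33469 windows were not limited to genes in the table or to genes expressed in these hearts. The ETS motif CCGGAAG, read by the factor GABP, was in 7 members (21.2%) and in 8.75% of all windows. The SP1 motif GGGCGG was in 15 (45.5%, against 33.1%), and TCAAGGTCA, the motif of estrogen-related receptors, was in none of the 33 and in 0.433% of all windows. The YY1 motif AAGATGGC was in 9 members (27.3%) and in 3.17% of all windows. In the 9 members it lay on the coding strand, starting between 1 base before and 27 bases after the annotated start. Its letters include ATG, the start codon. The 250 bases before the start are shown for 3 members: Ndufs1 had the largest difference as deposited between NAM-treated and obese samples apart from the uncertain Ndufs6, Ndufb7 was among the largest differences between NAM-treated and lean, and Ndufa12 carries an NRF1 match. Capitals mark ETS and SP1 matches in Ndufb7, an ETS match in Ndufs1, and NRF1 and SP1 matches in Ndufa12.
Ndufs1 (chr9:72073606-72073855, minus strand): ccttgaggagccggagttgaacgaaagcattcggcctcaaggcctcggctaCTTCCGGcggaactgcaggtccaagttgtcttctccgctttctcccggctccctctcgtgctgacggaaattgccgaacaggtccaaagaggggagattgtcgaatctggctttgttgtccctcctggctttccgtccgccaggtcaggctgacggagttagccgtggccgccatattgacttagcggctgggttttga
Ndufb7 (chr19:41477292-41477541, minus strand): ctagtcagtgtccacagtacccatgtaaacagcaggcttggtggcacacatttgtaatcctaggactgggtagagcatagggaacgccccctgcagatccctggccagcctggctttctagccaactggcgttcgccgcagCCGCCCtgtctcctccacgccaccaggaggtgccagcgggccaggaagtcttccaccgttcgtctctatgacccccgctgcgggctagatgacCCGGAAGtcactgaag
Ndufa12 (chr7:30658066-30658315, plus strand): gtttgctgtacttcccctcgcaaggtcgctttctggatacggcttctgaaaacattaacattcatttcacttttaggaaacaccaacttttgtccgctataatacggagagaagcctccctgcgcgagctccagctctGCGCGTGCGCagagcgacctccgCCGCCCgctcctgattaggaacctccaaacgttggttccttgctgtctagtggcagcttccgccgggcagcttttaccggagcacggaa

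For the YY1 match, 24 bases around it are shown for 4 members whose values differ in direction with NAM, with the match in capitals. A match describes letters in a window and not binding by a factor.
Ndufs4 (chr2:47794895-47794918, minus strand): cccacaggAAGATGGCggcggtct
Ndufs7 (chr7:10110479-10110502, minus strand): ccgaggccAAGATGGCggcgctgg
Ndufa9 (chr4:161374145-161374168, minus strand): tgtgggagAAGATGGCggccgccg
Ndufb8 (chr1:253362900-253362923, minus strand): agaaggtgAAGATGGCggcgtccc

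The levels of the 37 complex I rows spanned a wide range although these subunits are assembled in equal numbers. In lean hearts their median was 171 TPM with quartiles of 123 and 309.6 TPM, and 32 of the 37 lay between 50 and 600 TPM. The highest was Ndufa1, a small membrane arm subunit encoded on the X chromosome, with 3143 ± 116 TPM (SD, n = 4), followed by Ndufa3 with 1516 ± 172 TPM. The lowest core subunit was Ndufs7, which holds the iron-sulfur cluster next to the ubiquinone site, with 18.1 ± 5.34 TPM. The other core subunits named here lay between 80.6 ± 10.5 TPM for Ndufs8 and 435 ± 29.1 TPM for Ndufv2. Ndufa4l2 (3.0 ± 0.531 TPM) and the lower Ndufa10l1 row (2.72 ± 1.35 TPM) were near the lower end in all groups. Ndufs6 was listed at 3.72, 2.19, 2.22 and 3.31 TPM in lean hearts, 1.22, 0, 0 and 3.72 in obese and 4.78, 3.22, 2.14 and 0 in NAM-treated samples, so its groups overlapped throughout.

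**Figure D1:**
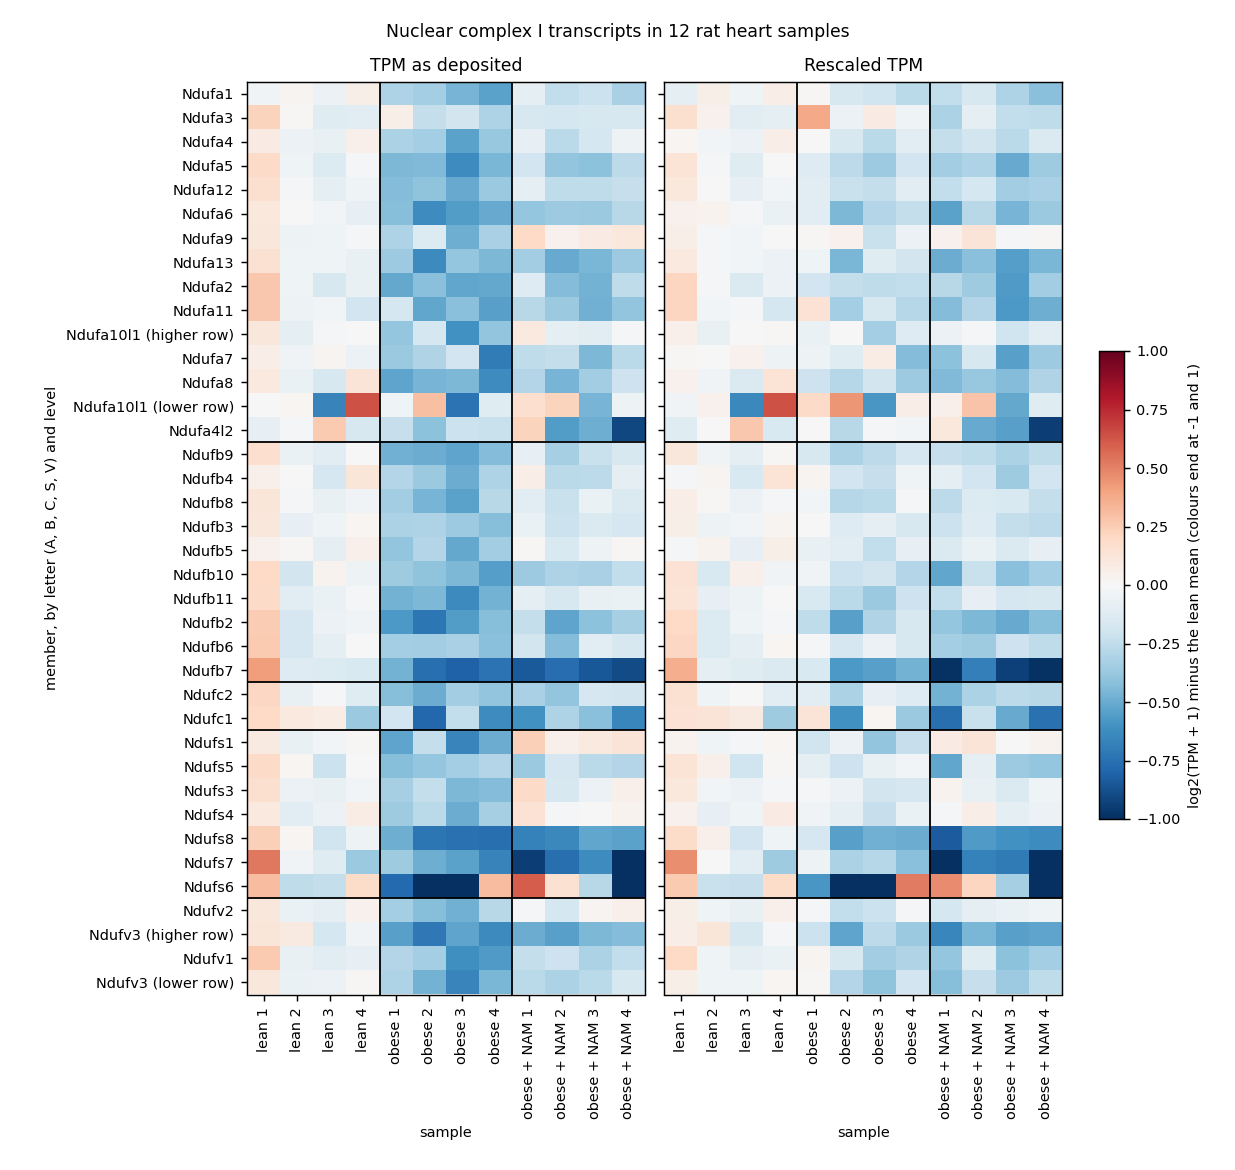
Members (rows, by letter and then by level) in each of the 12 samples (columns), as log2(TPM + 1) minus the mean of the 4 lean samples, as deposited on the left and rescaled on the right. Most rows are below the lean mean in the obese samples on the left; on the right Ndufb7, Ndufs7 and Ndufs8 are the darkest rows in the NAM-treated samples besides Ndufs6, Ndufc1 and Ndufa4l2 in single samples.

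Obese hearts had lower shares of almost all complex I transcripts than lean hearts on the deposited scale. In limma's test 34 of the 39 members were lower (adjusted p under 0.05) and 0 were higher, against 16.5% of all tested genes lower and 0.352% higher. The median difference of the members was -0.42 on the log2 scale, and that of all tested genes -0.20. Genes with a mean of at least 50 TPM, as most members have, were lower more often than all tested genes. In the short, middle and long ranges of gene span given below, 57 of 169, 51 of 91 and 185 of 338 such genes were lower. Their medians were -0.20, -0.34 and -0.34. Of the members in these ranges 9 of 12, 11 of 11 and 11 of 12 were lower. The samples of the 2 groups did not overlap for 33 members, all lower in obese hearts, where 23.2% of all genes were lower without overlap. After rescaling, 0 of the 39 passed limma's test in either direction (0.751% of all genes were lower and 0.589% higher), 15 had an unadjusted p under 0.05 (all genes 16.7%), and 11 were lower without overlap (all genes 5.31%). The rescaled median was -0.16 for the members, of which 37 were negative, and 0.00 for all genes. For genes with a mean of at least 50 TPM the rescaled medians were 0.059, -0.081 and -0.087 in the short, middle and long ranges. The deposited count was also 0 when TPM was recomputed without mitochondrially encoded genes, and 29 without lean replicate 1. The rescaled count was 3 with quantile normalization (Ndufb9, Ndufb11 and the higher Ndufv3 row), 3 among genes with a mean of at least 5 TPM (Ndufb9, Ndufs8 and the higher Ndufv3 row) and 2 without obese replicate 1 (Ndufs8 and the higher Ndufv3 row).

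The 10 N module rows other than Ndufs6 were all lower in obese hearts as deposited. Ndufs1, the largest subunit, which carries several of the iron-sulfur clusters, was at 284, 253, 261 and 269 TPM in the lean samples, 185, 225, 168 and 189 in the obese samples and 314, 276, 286 and 291 in the NAM-treated samples. Its obese samples all lay below the lean and the NAM-treated samples, and the lean and NAM-treated samples overlapped. The difference between obese and lean was -0.48 ± 0.088 (log2, ± SE; limma adjusted p = 0.00443) as deposited and -0.22 rescaled (limma adjusted p = 0.127). Ndufv1, which binds NADH and the flavin cofactor, was at 166, 132, 129 and 131 TPM in the lean samples, 113, 109, 90.3 and 93.4 in the obese samples and 117, 120.00, 111 and 116 in the NAM-treated samples. All lean samples of Ndufv1 were above all obese samples (-0.45 ± 0.098, limma adjusted p = 0.00979), and lean replicate 1 was the highest. Ndufv2, which holds an iron-sulfur cluster near the flavin, was at 471, 414, 409 and 448 TPM in the lean samples, 343, 323, 312 and 358 in the obese samples and 429, 386, 443 and 450.3 in the NAM-treated samples. It had the smallest of the differences in this module (-0.38 ± 0.076, limma adjusted p = 0.00657) besides Ndufs4 at -0.36. The higher row of Ndufv3, a small accessory subunit, was at 514, 501, 416 and 459.9 TPM in the lean samples, 324, 287, 327 and 303 in the obese samples and 334, 323, 345 and 348 in the NAM-treated samples. Its lean samples were higher than all others, with -0.60 ± 0.078 as deposited (limma adjusted p = 0.00112) and -0.34 rescaled (limma adjusted p = 0.0634), the smallest rescaled p of the 39. Of the other accessory rows of this module, Ndufa6, which binds the acyl carrier subunit, was lower by -0.53, Ndufa2 by -0.49, the lower Ndufv3 row by -0.47, Ndufa12 by -0.43 and Ndufa7 by -0.39.

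All 6 Q module members were lower in obese hearts as deposited. Ndufs8, which carries a pair of iron-sulfur clusters, was at 94.6, 81.1, 69.5 and 77.3 TPM in the lean samples, 56.9, 48.2, 47.4 and 47.1 in the obese samples and 49.6, 50.9, 55.6 and 54.8 in the NAM-treated samples. Every lean sample was above every obese and NAM-treated sample, and the obese and NAM-treated samples overlapped. Its difference of -0.68 ± 0.099 (limma adjusted p = 0.00207) was the largest of the core subunits named here, and rescaled it was -0.42 (limma adjusted p = 0.064). Ndufs3, a core subunit beside the ubiquinone site, was at 191, 164, 162 and 167 TPM in the lean samples, 135, 144, 125 and 126 in the obese samples and 195, 153, 164 and 177 in the NAM-treated samples. It was lower in all obese samples than in any lean sample (-0.36 ± 0.089, limma adjusted p = 0.0167). Ndufs7 was at 25.8, 17.2, 16.1 and 13.4 TPM in the lean samples, 13.6, 12.3, 11.9 and 10.8 in the obese samples and 8.69, 10.02, 11.1 and 7.92 in the NAM-treated samples. Lean replicate 4 lay within the range of the obese samples, and the call was lost in 11 of the 12 fits that left out 1 sample (-0.51 ± 0.16, limma adjusted p = 0.0489, up to 0.114 in those fits). The accessory members Ndufa5 (-0.49) and Ndufa9, which stabilises the junction with the membrane arm (-0.31), were also lower, and the call of Ndufa9 was lost in 2 of the 12 fits.

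In the membrane arm all 10 distal members were lower in obese hearts as deposited and had no overlap with the lean samples, and 7 of the 10 proximal rows were lower. Ndufb7, which faces the intermembrane space and is folded by disulfide bonds, was at 129, 88.0, 87.4 and 86.4 TPM in the lean samples, 69.2, 56.6, 54.6 and 57.3 in the obese samples and 53.4, 56.3, 53.1 and 51.3 in the NAM-treated samples. Lean replicate 1 was far above the other lean samples, all lean samples were above all others, and the difference was -0.69 ± 0.12 (limma adjusted p = 0.00416). Ndufb11, encoded on the X chromosome, was at 191, 155, 160.03 and 166 TPM in the lean samples, 120.3, 122, 108 and 120.4 in the obese samples and 157, 149.6, 159 and 160.3 in the NAM-treated samples. Its obese samples lay below all others (-0.51 ± 0.078, limma adjusted p = 0.00256). Ndufb8, often used as an antibody target to judge assembled complex I, was lower by -0.40, Ndufb9 by -0.48, and Ndufb2 by -0.57. The remaining 5 distal members had differences between -0.44 (Ndufb10) and -0.35 (Ndufb3). In the proximal arm Ndufa13, also known as GRIM-19, was at 236, 206, 206 and 202 TPM in the lean samples, 165, 136, 162 and 155 in the obese samples and 167, 149.6, 154 and 165 in the NAM-treated samples. Its lean samples were all above the others (-0.46 ± 0.081, limma adjusted p = 0.00413). Ndufa1 was at 3073, 3209, 3019.8 and 3269 TPM in the lean samples, 2537, 2480.2, 2281 and 2171 in the obese samples and 2941, 2655, 2707 and 2509 in the NAM-treated samples, and the difference between obese and lean was -0.41 ± 0.068 (limma adjusted p = 0.00343). Ndufa8 (-0.52), Ndufa11 (-0.42), Ndufc2 (-0.42), the higher Ndufa10l1 row (-0.39) and Ndufs5 (-0.36) were the other proximal members that were lower. Ndufa4, the complex IV subunit, was lower by -0.39 as well.

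The 5 members that did not pass limma's test between obese and lean were Ndufa3, Ndufc1, Ndufa4l2, Ndufs6 and the lower Ndufa10l1 row. Ndufa3, the second most abundant, was at 1758, 1520.3, 1387 and 1399 TPM in the lean samples, 1570.2, 1281, 1329 and 1221 in the obese samples and 1347, 1333, 1354 and 1351 in the NAM-treated samples. Obese replicate 1 was above 3 of the 4 lean samples, and the difference of -0.17 ± 0.089 had a limma adjusted p of 0.207. Ndufc1 was at 158, 148, 145 and 106 TPM in the lean samples, 120.4, 79.5, 116 and 88.6 in the obese samples and 90.3, 111, 103 and 87.5 in the NAM-treated samples. Its groups overlapped and its samples were spread widely (-0.46 ± 0.15, limma adjusted p = 0.0535). Ndufa4l2, Ndufs6 and the lower Ndufa10l1 row had means of 3.0 TPM or less in each group and limma adjusted p-values of 0.348, 0.244 and 0.735.

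**Figure D2:**
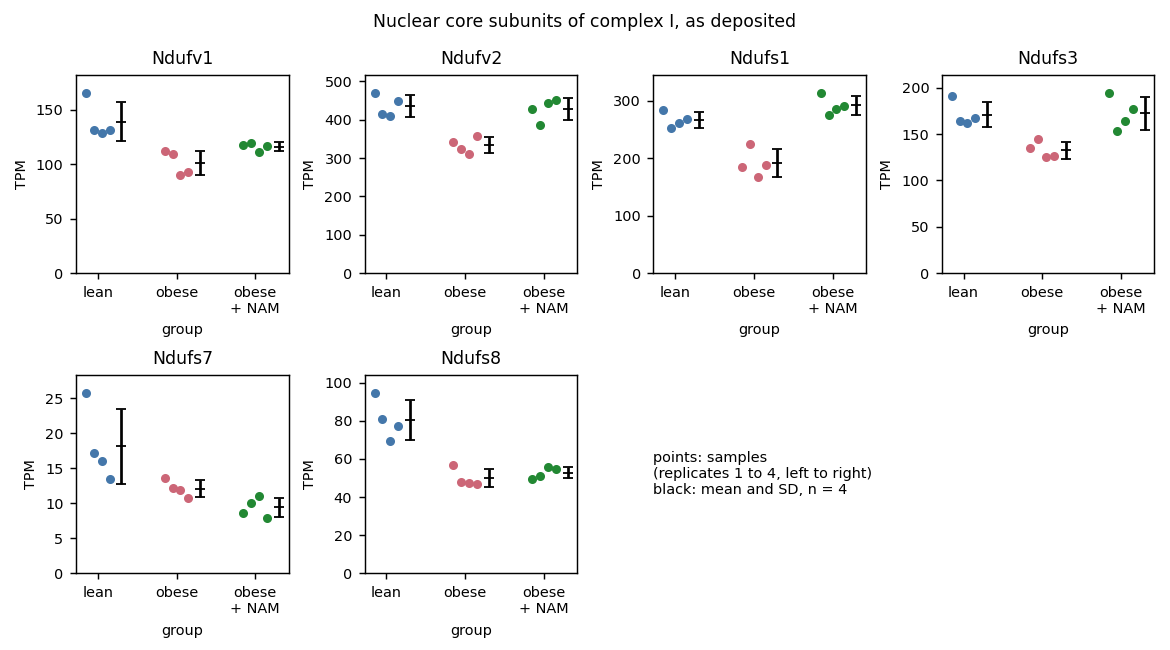
TPM as deposited of nuclear core subunits in each sample, by group, with the mean and SD of 4 samples in black and each axis starting at 0. Ndufs1, Ndufs3 and Ndufv2 are lower in obese than in both other groups, while the NAM-treated samples of Ndufs7 and Ndufs8 lie below all lean samples.

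As deposited, 15 of the 39 were higher in NAM-treated than in obese hearts by limma's test and 0 were lower, where 28.8% of all tested genes were higher and 0.466% lower. The members' median was 0.19 and that of all genes 0.25. Their range ran from -0.34 for Ndufs7 to 0.61 for Ndufs1 among members with a mean above 5 TPM. The groups did not overlap for 17 members, all higher with NAM (all genes 28.0%). After rescaling, 0 passed limma's test in either direction (0.200% of all genes were higher, 0.513% lower), 13 had an unadjusted p under 0.05 (all genes 15.7%), and the median was -0.13 with 30 of 39 negative. Rescaled, 6 members were lower with NAM without overlap and 1 was higher, where 453 and 513 of the 10526 tested genes were. When TPM was recomputed without mitochondrially encoded genes, Ndufs1 was the 1 member called. The deposited count fell to 8 without NAM-treated replicate 1 and to 9 without obese replicate 3.

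The core subunits Ndufs1, Ndufs3 and Ndufv2 were higher with NAM as deposited. Ndufs1, whose samples are listed above, had all NAM-treated samples above all obese samples on both scales. Its difference was 0.61 ± 0.088 (limma adjusted p = 0.00292) as deposited and 0.29 ± 0.068 (limma adjusted p = 0.0852) rescaled, and it passed in 12 of 12 deposited fits that left out 1 sample. The rescaled difference of Ndufs1 passed without obese replicate 2 (0.34, limma adjusted p = 0.0278), among genes with a mean of at least 5 TPM (0.28, limma adjusted p = 0.0447) and with quantile normalization (0.39, limma adjusted p = 0.0440). Ndufs3 was higher by 0.37 ± 0.089 (limma adjusted p = 0.0105) and Ndufv2 by 0.35 ± 0.076 (limma adjusted p = 0.00674). In both all NAM-treated samples were above all obese samples, and rescaled their differences were 0.049 and 0.030. Ndufv1 (0.20) and Ndufs8 (0.082) did not pass, and their NAM-treated samples overlapped with the obese ones as deposited. Rescaled, all NAM-treated samples of Ndufs8 were below all obese samples (-0.24 ± 0.10, limma adjusted p = 0.289). For Ndufs7 the NAM-treated mean of 9.42 ± 1.39 TPM was under the obese mean of 12.1 ± 1.17 TPM (-0.34 ± 0.16, limma adjusted p = 0.133). After rescaling, all NAM-treated samples of Ndufs7 were below all obese samples (-0.63 ± 0.17, limma adjusted p = 0.105).

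Among the accessory members Ndufs4, an N module subunit whose loss is used to model mitochondrial disease in mice, was at 117, 101, 105 and 115 TPM in the lean samples, 85.0, 90.3, 77.2 and 86.5 in the obese samples and 121, 108, 109 and 112 in the NAM-treated samples. The obese samples were below all others and the lean and NAM-treated samples overlapped (0.41 ± 0.077, limma adjusted p = 0.00432). Ndufa9 was at 229.9, 205, 205 and 209 TPM in the lean samples, 171, 193, 151 and 169 in the obese samples and 243, 219, 224 and 228 in the NAM-treated samples. Its NAM-treated samples were above all obese samples, and 3 of the 4 lean samples were below all NAM-treated ones (0.42 ± 0.081, limma adjusted p = 0.00444). Ndufb11 rose by 0.41 ± 0.078 (limma adjusted p = 0.00444) with no overlap. The higher Ndufa10l1 row (0.36) and Ndufb5 (0.34) also passed in all 12 fits without 1 sample, as did Ndufs4, Ndufa9, Ndufb11, Ndufs3 and Ndufv2. Ndufb9 (0.28), Ndufb8 (0.27), Ndufa4 (0.25), Ndufa12 (0.22), Ndufb3 (0.20) and Ndufa1 (0.19) lost the call in 1 to 9 of these 12 fits. Besides Ndufs7, negative values as deposited were those of Ndufa4l2 (-0.17), Ndufb7 (-0.14) and Ndufc1 (-0.030), and none passed. After rescaling Ndufb7 was below the obese range in all NAM-treated samples (-0.46 ± 0.13, limma adjusted p = 0.122). Ndufa13 was at -0.28 rescaled and passed without obese replicate 2 (-0.37, limma adjusted p = 0.0230).

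By letter, as deposited, 5 of 15 members named with A, 5 of 10 with B, 0 of 2 with C, 4 of 8 with S and 1 of 4 with V were higher with NAM, with medians of 0.18, 0.22, 0.058, 0.34 and 0.21. By module the higher members were 4 of 11 in N, 3 of 6 in Q, 2 of 10 in the proximal and 5 of 10 in the distal membrane arm, and Ndufa4 was the remaining one. Of all tested genes 28.8% were higher. After rescaling, 0 members of any letter or module were called with NAM against obese. The rescaled letter medians were -0.14 (A), -0.11 (B), -0.26 (C), 0.016 (S) and -0.11 (V). Against lean, the letter medians of obese samples lay between -0.41 (A) and -0.46 (V) as deposited, and between -0.15 (A) and -0.21 (V) rescaled. These groups are small, and differences between letters or modules were not tested.

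**Figure D3:**
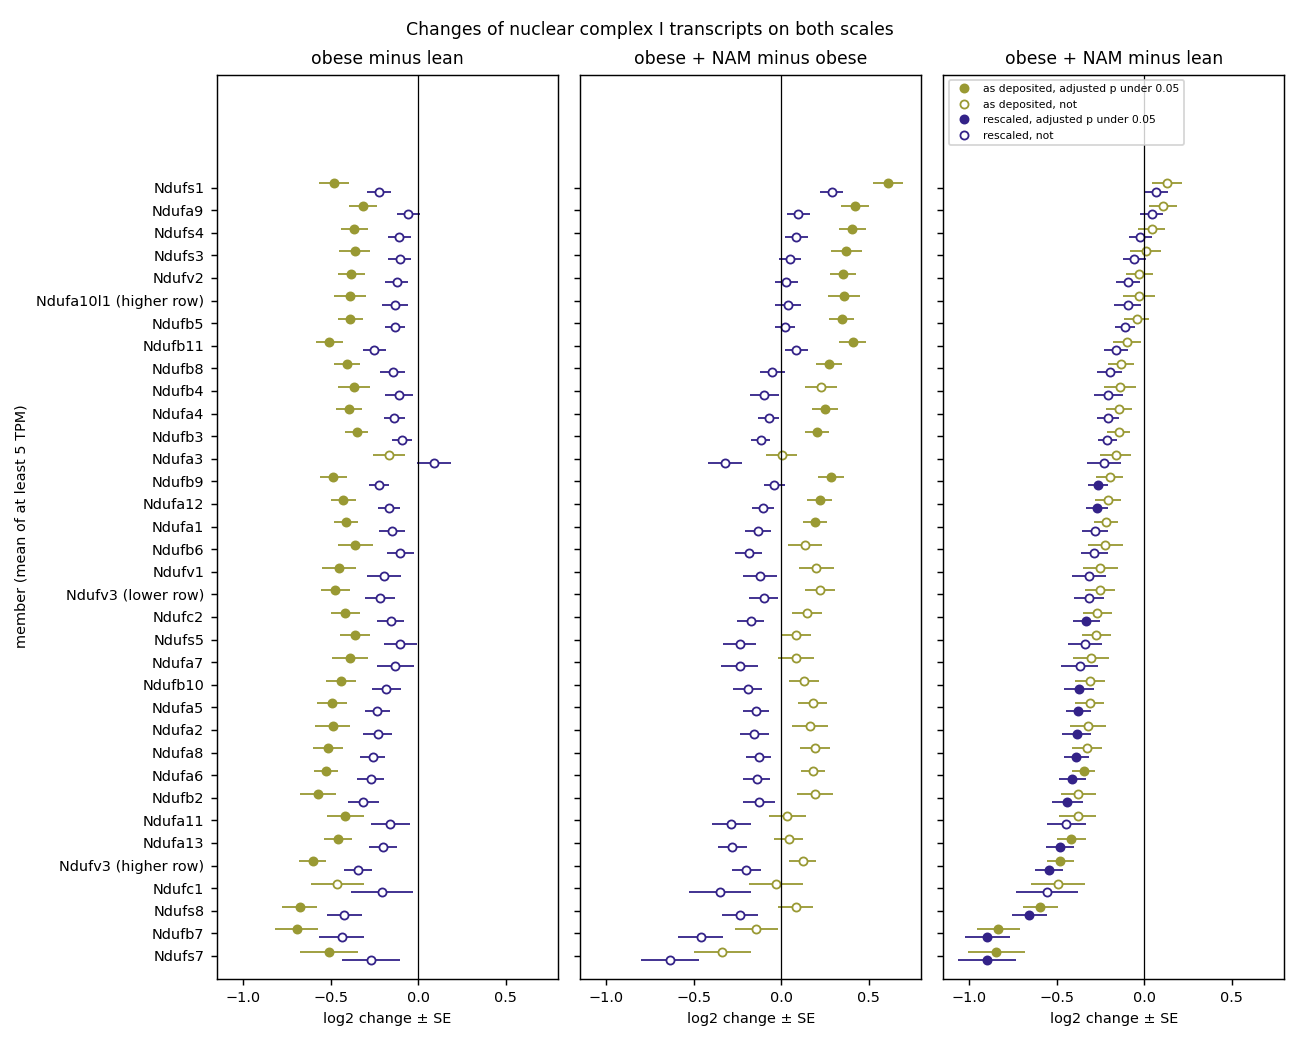
Log2 change ± SE of members with a mean of at least 5 TPM in the 3 comparisons, as deposited (olive) and rescaled (dark blue), with filled points where limma's adjusted p was under 0.05. Members are ordered by the rescaled difference between NAM-treated and lean samples; rescaling moves all points of a panel by a similar amount, and Ndufs7, Ndufb7 and Ndufs8 lie at the lower end of the right panel.

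Several members were lower in NAM-treated than in lean hearts, and this comparison gave calls on both scales. As deposited 6 of 39 were lower than lean and 0 higher by limma's test (all genes 0.969% lower and 0.865% higher), with a median of -0.25 for the members and 0.054 for all genes. After rescaling 14 were lower and 0 higher (all genes 1.59% lower and 0.770% higher), with a median of -0.32 against 0.00, and 24 were lower without overlap (all genes 6.35%; as deposited 17, all genes 3.81%). Of genes with a mean of at least 50 TPM, 22 of 169 short, 10 of 91 middle and 15 of 338 long ones were lower rescaled, by gene span. Their rescaled medians were -0.12, -0.14 and -0.021, and as deposited 14, 3 and 5 of them were lower. Of the members in these ranges 5 of 12, 6 of 11 and 2 of 12 were lower rescaled. The lean and obese samples are used in more than 1 comparison, so the 3 comparisons are not independent of each other. The rescaled count was 8 with no filter on low genes, 7 with quantile normalization, 5 without lean replicate 1, 8 without lean replicate 2, 8 without lean replicate 4, 9 without NAM-treated replicate 1, 5 without NAM-treated replicate 3 and 7 without NAM-treated replicate 4. The deposited count was 3 without lean replicate 2 and 3 without NAM-treated replicate 4, and in both the 3 were Ndufb7, Ndufs8 and the higher Ndufv3 row.

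Ndufb7, Ndufs8 and the higher Ndufv3 row passed on both scales in every fit that left out 1 of the 12 samples. For Ndufb7 the mean was 97.8 ± 21.0 TPM in lean and 53.5 ± 2.08 TPM in NAM-treated samples, a difference of -0.84 ± 0.12 as deposited (limma adjusted p = 0.00588) and -0.90 ± 0.13 rescaled (limma adjusted p = 0.00504). Without lean replicate 1, the sample with the most Ndufb7, the difference was -0.70 as deposited and -0.78 rescaled. For Ndufs8 the means were 80.6 ± 10.5 and 52.8 ± 2.93 TPM, with -0.60 ± 0.099 (limma adjusted p = 0.0108) and rescaled -0.66 ± 0.10 (limma adjusted p = 0.00611). The higher Ndufv3 row had means of 473 ± 44.2 and 337 ± 11.4 TPM, with -0.48 ± 0.078 (limma adjusted p = 0.009) and rescaled -0.55 ± 0.082 (limma adjusted p = 0.00564). In all 3 the NAM-treated samples overlapped with the obese samples as deposited and lay below every lean sample.

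Ndufs7 fell to 9.42 ± 1.39 TPM from 18.1 ± 5.34 TPM in lean hearts, with -0.85 ± 0.16 as deposited (limma adjusted p = 0.0219) and -0.90 ± 0.17 rescaled (limma adjusted p = 0.0162). The deposited call was lost in 3 of the 12 fits that left out 1 sample (limma adjusted p up to 0.0750), and the rescaled call in 1, without NAM-treated replicate 4 (limma adjusted p = 0.0524). Ndufa13 was lower by -0.42 ± 0.081 as deposited (limma adjusted p = 0.0219), lost in 5 of the 12 fits, and by -0.48 ± 0.082 rescaled (limma adjusted p = 0.0102), lost in none. Ndufa6 was the sixth deposited call at -0.35 ± 0.068 (limma adjusted p = 0.0228), lost in 6 of 12 fits, and it was at -0.41 rescaled (limma adjusted p = 0.0186), lost in 4. The other rescaled calls were Ndufa8 (-0.39), Ndufa5 (-0.38), Ndufb2 (-0.44), Ndufa2 (-0.39), Ndufb9 (-0.26), Ndufb10 (-0.38), Ndufa12 (-0.27) and Ndufc2 (-0.33), each lost in 2 to 9 of the 12 fits. The 14 rescaled calls among the 39 members include Ndufb7, Ndufa8 and Ndufb10. These are 3 of the 4 members known to face the intermembrane space and to be folded by disulfide bonds. The other, Ndufs5, was at -0.34 rescaled (limma adjusted p = 0.0837). As deposited Ndufb7 was called, and Ndufa8 and Ndufb10 were not (limma adjusted p of 0.0821 and 0.0916). This grouping was made after the values were seen. At the other end, Ndufs1 was at 0.064, Ndufa9 at 0.042 and Ndufs4 at -0.022 rescaled, and none of the 3 passed.

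Ratios between 2 members in a sample do not depend on the scale, and they show how unevenly the members moved. The ratio of Ndufs1 to Ndufs8 was 3.01, 3.12, 3.76 and 3.48 in lean hearts, 3.25, 4.68, 3.55 and 4.01 in obese and 6.33, 5.42, 5.14 and 5.31 in NAM-treated samples. The ratio of Ndufs1 to Ndufb7 was 2.20, 2.87, 2.99 and 3.11 in lean hearts, 2.68, 3.99, 3.08 and 3.29 in obese and 5.89, 4.90, 5.38 and 5.68 in NAM-treated samples. Both ratios were higher in every NAM-treated sample than in any other sample, while lean and obese samples overlapped. The pairs were picked after the members' values were seen, so they carry no test.

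The difference between NAM-treated and obese samples tended to be larger for members whose genes span more of the genome. Spans were taken from RefSeq (GRCr8) for 35 members, and the division into 3 ranges was made after the values were seen. As deposited, the median difference between NAM-treated and obese samples was 0.11 for the 12 members up to 5.06 kb, 0.19 for the 11 between 5.25 and 8.36 kb and 0.32 for the 12 from 8.57 to 110 kb. Of these, 3, 3 and 8 members were higher by limma's test. Of all tested genes, divided at the same cut points, 169 of 1043, 179 of 791 and 2469 of 7338 were higher. These outer ranges were wider than those of the members, starting at 0.339 kb and ending at 2368 kb, so many genes were longer than any member could be matched to. All tested genes had medians of 0.15, 0.19 and 0.27 in these wider ranges, so the same order was seen beyond complex I. Of tested genes with a mean of at least 50 TPM, 40 of 169, 41 of 91 and 242 of 338 were higher. Their medians were 0.13, 0.23 and 0.37, and the members' median was below that in each range. Ndufs1 spans 33.3 kb, Ndufa9 28.8 kb, Ndufs4 110 kb, Ndufs8 3.89 kb and Ndufb7 4.34 kb. Ndufb11 is short, at 2.26 kb, and rose, and Ndufs7 spans 7.64 kb. Between obese and lean the members' 3 medians were -0.45, -0.45 and -0.39, and all genes were at -0.20 in each range. Over the 35 members Spearman's rho between span and difference was 0.53 for NAM-treated against obese and 0.19 for obese against lean, and over 9172 genes 0.21 and -0.011, as a description across genes measured in the same 12 libraries.

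In each sample the mean log2(TPM + 1) of the 11 long members with a mean of at least 5 TPM, minus that of 11 short ones, was -0.36 ± 0.083 (SD, n = 4) in lean hearts, -0.29 ± 0.11 in obese and -0.11 ± 0.062 in NAM-treated samples. The NAM-treated samples ranged from -0.19 to -0.045 and overlapped with obese replicate 2 (-0.15). The same value over all tested genes was -0.79 ± 0.067 in lean hearts, -0.80 ± 0.069 in obese and -0.66 ± 0.016 in NAM-treated samples.

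**Figure D4:**
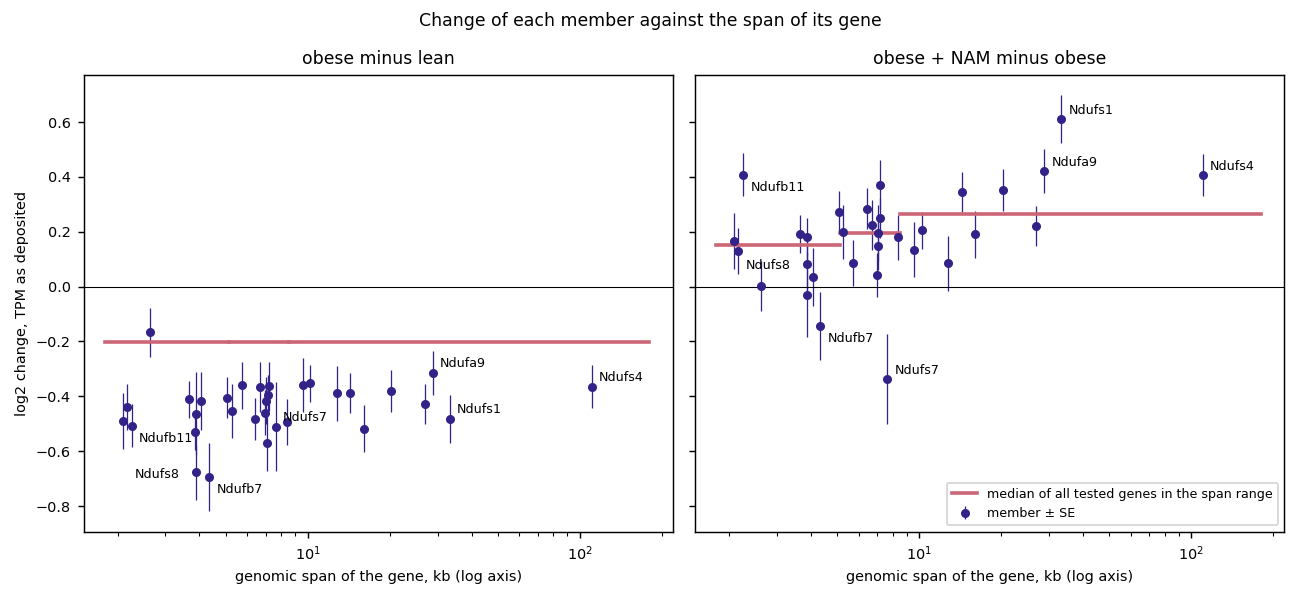
Log2 change (± SE, as deposited) of members with a mean of at least 5 TPM against the genomic span of their gene on a log axis, for obese minus lean (left) and NAM-treated minus obese (right); red lines are medians of all tested genes in each of 3 span ranges. On the right, the longer genes Ndufs1, Ndufa9 and Ndufs4 lie above the line and the shorter Ndufs7, Ndufb7 and Ndufs8 below it. Other members go the other way. The longer Ndufa7, Ndufb6, Ndufa8, Ndufb3 and Ndufa12 lie below the line, and the short Ndufb11, Ndufb8, Ndufa1, Ndufa6 and Ndufa2 above it.

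Complex I also needs 7 subunits from mitochondrial DNA, and these did not follow the nuclear ones. As deposited 5 of the 7 were higher in obese than in lean hearts and 0 lower (all genes 0.352% higher). Rescaled all 7 were higher (all genes 0.589%). Mt-nd4 had the largest difference, from 22373 ± 1892 TPM in lean to 33486 ± 3470 in obese (0.58, limma adjusted p = 0.00174), and it was at 32620 ± 2007 TPM with NAM. With NAM against obese, 1 of 7 was lower as deposited (Mt-nd2, -0.25, limma adjusted p = 0.0243) and 2 rescaled (all genes 0.466% and 0.513%). The summed nuclear rows without Ndufa4 and Ndufa4l2 were 12985, 11828, 11298 and 11886 TPM in lean hearts, 9644, 9179, 8754 and 8793 in obese and 10932, 10002, 10299 and 10332 in NAM-treated samples. The 3 groups did not overlap in this sum. Ndufa1 and Ndufa3, with lean means of 3143 and 1516 TPM, are a large part of the lean mean sum of 11999 TPM. The median of the 37 rows in a sample was 161.9 to 194 TPM in lean, 125 to 136 in obese and 149.6 to 160.3 in NAM-treated samples, also without overlap. Rescaled, the sums were 11391 ± 419, 10352 ± 745 and 9440 ± 420 (SD, n = 4 each), with the NAM-treated samples below all lean samples and overlapping the obese ones. The ratio of the mitochondrial to the nuclear sum, which no scaling alters, was 11.8, 14.7, 16.1 and 14.9 in lean hearts, 23.5, 25.5, 23.7 and 24.3 in obese and 19.4, 21.2, 18.6 and 20.0 in NAM-treated samples. The ratio thus separated all 3 groups, with NAM-treated samples between the others. Mt-nd4l and Mt-nd4 overlap, so reads may be split between them.

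**Figure D5:**
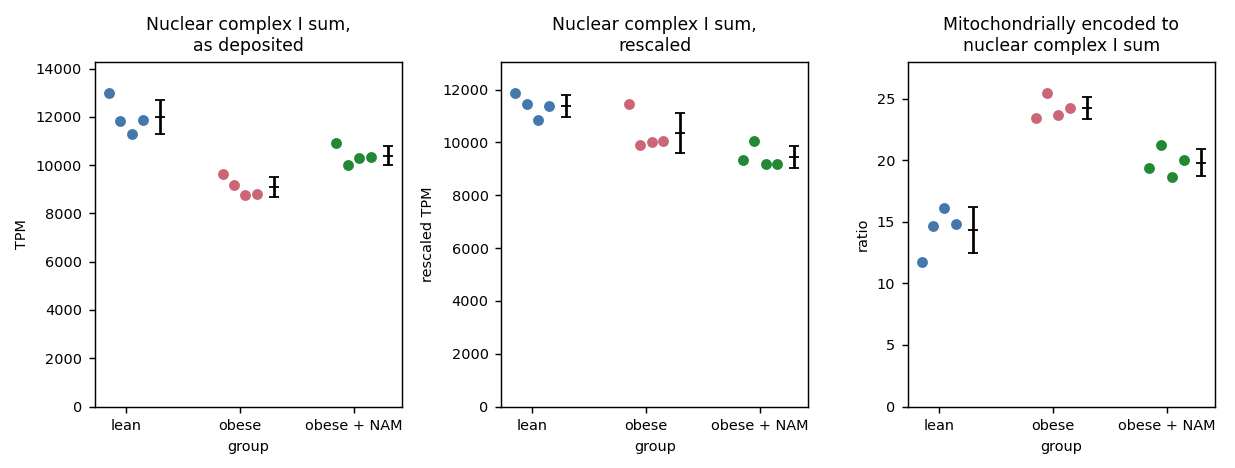
Summed TPM of the 37 nuclear complex I rows in each sample as deposited (left) and rescaled (middle), and the ratio of the mitochondrially encoded to the nuclear complex I sum (right), with the mean and SD of 4 samples in black and axes starting at 0. The deposited sum and the ratio separate the 3 groups, and the rescaled sum of the NAM-treated samples lies below all lean samples.

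Other genes of the pathway are given as counts from lists of which none was tested as a set. Of all tested genes 16.5% were lower in obese than in lean hearts and 28.8% higher with NAM than in obese hearts, as deposited. Genes with a mean of at least 50 TPM had other shares, given above. Of 17 complex I assembly factors, which build the complex and leave it, 5 were lower in obese than in lean hearts as deposited, 10 were higher with NAM than in obese hearts and 0 differed between NAM-treated and lean. Their median with NAM was 0.37, where the members had 0.19. All 4 subunits of complex II, which are all nuclear, were lower in obese and higher with NAM, and 0 differed from lean with NAM. For the nuclear subunits of complex III the counts were 9 of 9 lower, 5 higher and 3 lower, for those of complex IV 11 of 12 lower, 5 higher and 4 lower, and for ATP synthase 14 of 15 lower, 10 higher and 0. After rescaling, none of these lists had more than 1 member called between obese and lean or between NAM-treated and obese. Against lean, 4 of 9, 6 of 12 and 4 of 15 members of complexes III, IV and ATP synthase were lower with NAM rescaled, and 0 of the complex II subunits and assembly factors. Of all tested genes 0.969% were lower with NAM than in lean as deposited and 1.59% rescaled. Both shares were larger among genes with a mean of at least 50 TPM, as given above. Of 10 regulators of respiratory genes 3 were lower in obese (Ppargc1a, Esrra and Esrrg) and 3 higher with NAM (Ppargc1a, Esrrg and Tfam) as deposited, and the share higher with NAM is near that of all genes. The estrogen-related receptor genes Esrra and Esrrb and the coactivator gene Ppargc1b were at 0.017, 0.049 and 0.022 with NAM, and none of them passed (limma adjusted p of 0.946, 0.835 and 0.925). Ppargc1a, the coactivator PGC-1 alpha, was at 8.40 ± 1.20 TPM in the lean group, 4.97 ± 0.736 TPM in the obese group and 7.77 ± 0.691 TPM after NAM (SD, n = 4 each), with -0.66 between obese and lean (limma adjusted p = 0.00416) and 0.56 with NAM (limma adjusted p = 0.00609). Rescaled these were -0.43 (limma adjusted p = 0.0580) and 0.28 (limma adjusted p = 0.197).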

How the data were processed

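Cardiac muscle RNA of 12 rat samples in 3 groups was sequenced from directional libraries of total RNA, per the labels' protocols. The authors deposited 1 table of TPM, with columns that sum to about 1e6 and no scaling across samples. The submitters' processing notes name the Rnor_6.0 build and limma. The aligner and counter: not given in the sources used here. In the 4 NAM-treated columns 498 of 17602 rows hold #N/A in place of a number, and these rows were left out. TPM keeps no depth, so the depth of each sample is unknown.

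The 10526 genes that reached 1 TPM in 4 or more of the 12 samples were fitted as log2(TPM + 1) with limma 3.58.1 in R 4.3.3 (statmod 1.5.0): 3 group means with 9 residual degrees of freedom, trended and robust eBayes, 2-sided, Benjamini-Hochberg over all tested genes within each comparison, threshold 0.05. Differences are on the log2(TPM + 1) scale, which understates those of low genes. Rescaling divides a sample by 1 factor, the median over tested genes of its value relative to the gene's geometric mean. The fit was tested on simulated data in which few genes changed, as many up as down. No shift shared by most genes was simulated, so that test does not bear on the deposited counts. The members, lists and tests were chosen with earlier results of these data known. A member is not reported here singly or drawn, but stays in the counts, sums and medians; all others are described. By the rule, the core subunits, the largest and smallest rescaled differences, the rescaled calls and 11 members fixed by name were to be given with values, and the others were added for completeness. Alternatives were pseudocounts of 0.1 and 5, no filter, a mean of at least 5 TPM, the 8 samples compared, a replicate block, quantile normalization, TPM without mitochondrially encoded genes, and each sample left out.

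Promoters and gene spans are from RefSeq (GRCr8), a newer build than the table's, and were matched by symbol.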

Additional observations from a re-analysis of the deposited data

Results flagged for a closer look

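In 10 of 117 checked sets of 4 samples (39 members in 3 groups), 1 sample stood far from the other 3; chance gives such a gap in about 1 of 20 sets, and members of a sample are not independent. Lean replicate 1 was the highest lean sample for Ndufv1 (166 TPM, next 132), Ndufb7 (129 TPM, next 88.0) and Ndufa13 (236 TPM, next 206), and it was also the sample with the lowest mitochondrial share. Obese replicate 3 was the lowest obese sample for Ndufa5 (348 TPM, next 392) and Ndufb11 (108 TPM, next 120.3). Obese replicate 1 was the highest for Ndufs8 (56.9 TPM, next 48.2). Obese replicate 2 was the highest for Ndufa2 (120.01 TPM, next 113) and the lowest for Ndufa4l2 (2.0 TPM, next 2.39). NAM-treated replicate 1 was the highest for Ndufa12 (320.02 TPM, next 290.2), and NAM-treated replicate 3 was the lowest for Ndufa7 (86.8 TPM, next 98.7).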

How the results depend on the processing

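As deposited, the 34 members lower in obese than in lean hearts became 0 with rescaling and 0 without mitochondrially encoded genes, and 29 to 33 with each sample left out. The 15 members higher with NAM became 0 with rescaling and 1 (Ndufs1) without mitochondrially encoded genes, and 8 to 15 with each sample left out. The 6 members that differed between NAM-treated and lean became 14 with rescaling and 3 to 6 with each sample left out. On the rescaled values, 0 members lower in obese became 3 with a mean of at least 5 TPM, 3 with quantile normalization and 0 to 2 with each sample left out. Rescaled, 0 members higher with NAM became 1 (Ndufs1) with a mean of at least 5 TPM, 1 (Ndufs1) with quantile normalization and 0 to 1 with each sample left out. The 14 members that differed between NAM-treated and lean became 8 without a filter, 7 with quantile normalization and 5 to 17 with each sample left out. The no-filter fit adjusts over more genes and also takes the rescaling factors from more genes. The cause of a changed count was not tested for any setting. Same-numbered samples did not deviate together (correlations of their deviations from the group means were -0.049 to 0.072), and 4 of 12 samples correlated best with their own number, so the numbers were not used as pairs. With the replicate block the 6 counts were 35, 15 and 8 as deposited and 0, 0 and 11 rescaled.

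Rescaling turned the sign of these deposited differences. Obese against lean: Ndufa10l1 (lower row) 0.029, Ndufa3 0.092. NAM-treated against obese: Ndufa3 -0.32, Ndufa11 -0.29, Ndufa13 -0.28, Ndufs5 -0.24, Ndufa7 -0.24, Ndufs8 -0.24, Ndufv3 (higher row) -0.20, Ndufb10 -0.19, Ndufb6 -0.19, Ndufc2 -0.17, Ndufa2 -0.16, Ndufa5 -0.14, Ndufa6 -0.14, Ndufa1 -0.13, Ndufa8 -0.13, Ndufb2 -0.13, Ndufv1 -0.12, Ndufb3 -0.12, Ndufa12 -0.10, Ndufa10l1 (lower row) -0.10, Ndufv3 (lower row) -0.10, Ndufb4 -0.098, Ndufa4 -0.073, Ndufb8 -0.051, Ndufb9 -0.039. NAM-treated against lean: Ndufs3 -0.057, Ndufs4 -0.022. Leaving out mitochondrially encoded genes turned these. Obese against lean: Ndufa10l1 (lower row) 0.087, Ndufa3 0.14. NAM-treated against obese: Ndufa3 -0.20, Ndufa11 -0.16, Ndufa13 -0.16, Ndufs8 -0.12, Ndufa7 -0.11, Ndufs5 -0.11, Ndufv3 (higher row) -0.077, Ndufb10 -0.070, Ndufb6 -0.064, Ndufc2 -0.052, Ndufa2 -0.033, Ndufa5 -0.021, Ndufa6 -0.018, Ndufa10l1 (lower row) -0.014, Ndufa1 -0.0085, Ndufa8 -0.0072, Ndufb2 -0.0043. NAM-treated against lean: Ndufb11 0.0064, Ndufb5 0.061, Ndufa10l1 (lower row) 0.073, Ndufa10l1 (higher row) 0.073, Ndufv2 0.077. With each sample left out, these deposited differences changed sign, none of them called: NAM-treated against lean, Ndufa10l1 (higher row) -0.076 to 0.0042, Ndufa10l1 (lower row) -0.25 to 0.18, Ndufs3 -0.053 to 0.063, Ndufs6 -0.68 to 0.16, Ndufv2 -0.057 to 0.020. NAM-treated against obese, Ndufa10l1 (lower row) -0.077 to 0.27, Ndufa11 -0.0080 to 0.11, Ndufa13 -0.017 to 0.073, Ndufa3 -0.044 to 0.077, Ndufa7 -0.019 to 0.15, Ndufc1 -0.14 to 0.060. Obese against lean, Ndufa10l1 (lower row) -0.37 to 0.063.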
